A study of Homo sapiens with 2 samples.

Results

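ITGB7, MZB1 and JCHAIN are genes of the plasma cell, and they held 5 of the 236 distinct peaks in a list made from an immunoprecipitation of SFRS8. The peaks were found by gene symbol, and these 3 genes are among 238 genes with a peak. ITGB7 held 3 peaks, and MZB1 and JCHAIN held 1 each. The genes were chosen by their IP and control read counts, which were already known, so those values are given as a description and were not tested.

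The study profiled the established human myeloma line ARP1 by RNA immunoprecipitation and sequencing (RIP-seq), and its title asks for targets of SFRS8 in myeloma. SFRS8 (current symbol SFSWAP) regulates the splicing of pre-mRNA. The group called IP was 1 library of RNA pulled down by anti-SFRS8 antibody, and the group called input was 1 library made without a RIP antibody. Both came from ARP1 cells with no genetic change or drug treatment named in the labels, and the protocol, which both libraries share, also names an antibody against N6-methyladenosine, whose use in these libraries is unclear.

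Plasma cells are the antibody-secreting end stage of the B lymphocyte, and myeloma is their malignancy. ITGB7 encodes the integrin beta-7 subunit, which pairs with the subunits encoded by ITGA4 and ITGAE and lets lymphocytes and myeloma cells attach to vessel walls, epithelium and stroma. MZB1 encodes a protein of the endoplasmic reticulum (ER) that works beside the chaperone HSP90B1 in the folding and secretion of antibody. JCHAIN encodes the small joining chain that links the units of IgA and IgM and lets the polymeric immunoglobulin receptor carry them across epithelium.

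Each peak is described by its whole reads in the IP library and in the control library, here read as the input, although the file names neither. The ratio is IP reads per control read, with an exact Clopper-Pearson 95% interval that covers counting error only and treats reads as independent. PCR copies could not be removed, so this and every other interval given here may be too narrow. All peaks together held 12068 IP reads and 87259 control reads, but the total reads of each library are unknown, so a ratio has meaning only against other peaks and a value under 1 does not show depletion. With 1 library per group there is no replicate check and no p-value. The ratios of all peaks had a median of 0.190 and quartiles of 0.0732 and 0.554.

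The 3 genes stood far apart in the list. The ITGB7 peaks lay high, the MZB1 peak lay near the middle and the JCHAIN peak was the lowest of all. The order by ratio was the ITGB7 middle peak, the ITGB7 3′ peak, the ITGB7 5′ peak, MZB1 and JCHAIN. Of the 5 peaks, the ITGB7 middle peak was alone with a ratio above 1, a value passed by 16.1% of all peaks, and 4 were below 1, against 83.5%. No interval of the 5 lay wholly above 1, against 11.4% of all peaks, and 4 intervals lay wholly below 1, against 76.3%. The 3 ITGB7 intervals lay wholly above the median of all peaks, as did 36.4% of all peaks, and the JCHAIN interval lay wholly below it, as did 40.3%. These shares are given as background, and nothing was read from them because the same counts chose the genes.

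**Figure D1:**
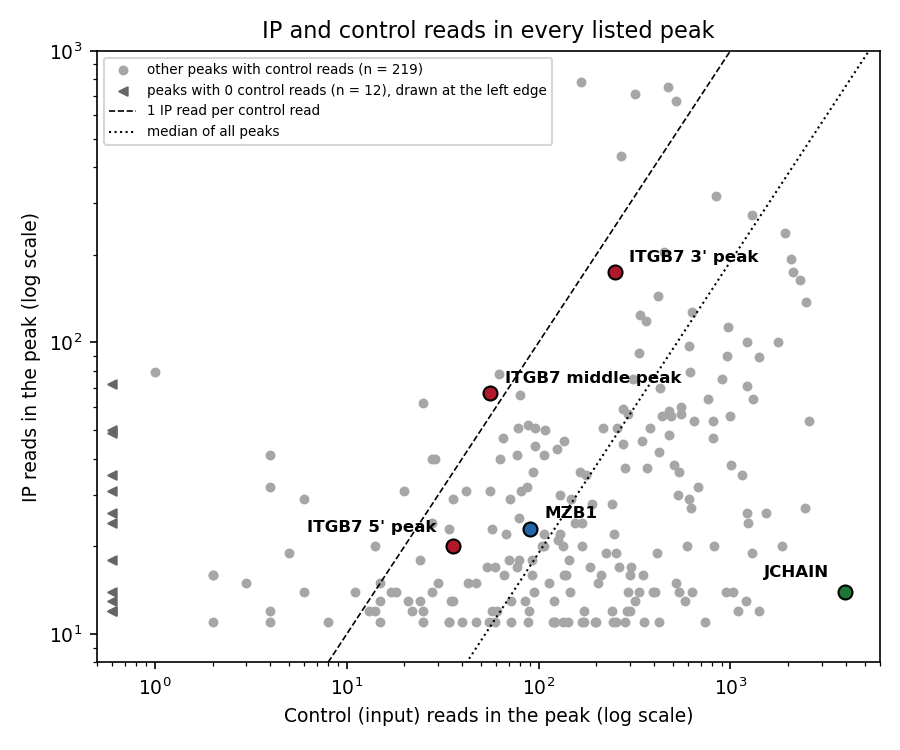
Each point is 1 of 236 peaks, with control reads on the x axis and IP reads on the y axis, both on log scales; the 12 peaks with 0 control reads are drawn as triangles at the left edge. The ITGB7 points lie near the line of 1 IP read per control read, MZB1 lies near the median line, and JCHAIN, with 3971 control reads, lies farthest to the right.

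ITGB7 (ENSG00000139626) lies on the minus strand of chromosome 12 from 53191318 to 53207307 on GRCh38 and is 15990 bases long with introns. Its peaks covered 6993 bases of the gene, or 43.7%. None began within the first 5987 bases, counted from the 5′ end of the gene. Exons were not mapped, so it is not known which parts of a peak are intronic.

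The 5′ peak of ITGB7, chr12:53200246-53201320, had 20 IP reads and 36 control reads over 1075 bases, a ratio of 0.556 (0.305 to 0.986). Its centre lay 6524 bases into the gene, at 40.8% of the gene's length. It was the narrowest and the least covered by IP reads of the ITGB7 peaks.

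The middle peak of ITGB7, chr12:53195301-53198095, had 67 IP reads and 56 control reads over 2795 bases, a ratio of 1.20 (0.826 to 1.74). Its centre lay 10609 bases into the gene, at 66.3% of its length. By ratio it ranked 38 of 236, the highest place of any of the 5 peaks.

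The 3′ peak of ITGB7, chr12:53191216-53194440, had 174 IP reads and 249 control reads over 3225 bases, a ratio of 0.699 (0.572 to 0.852). Its centre lay at 90.6% of the gene's length, and 102 of its bases ran past the 3′ end of the gene. By IP reads it ranked 12 of 236, whereas by control reads it ranked 95. By position the whole of this peak also lay inside ZNF740, a zinc finger gene that runs on the plus strand from 53180722 to 53195142 in RefSeq. The peak is listed on the minus strand and ZNF740 has no entry in the list. All 170 peaks whose gene had a known strand were listed on that strand, and 2 of all 236 peaks overlapped a peak on the other strand. The sources used here do not say whether reads were counted by strand. The part of ZNF740 in this peak's reads was not tested. The middle peak began 159 bases past the end of ZNF740, and neither it nor the 5′ peak overlapped another RefSeq gene. The ITGB7 peak widths were all whole multiples of 215 bases, so distances of 102 and 159 bases are smaller than a step.

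Among the ITGB7 peaks, read density was highest in the 3′ peak in both libraries, but the libraries ordered the other peaks differently. Reads outside the peaks are unknown. Per kb of peak, IP reads numbered 18.6 in the 5′ peak, 24.0 in the middle peak and 54.0 in the 3′ peak. Control reads numbered 33.5, 20.0 and 77.2 per kb in the same order. Control density was therefore lowest in the middle peak, and IP density was lowest in the 5′ peak. The middle peak took 25.7% of the ITGB7 IP reads (20.5 to 31.4) and 16.4% of the control reads (12.7 to 20.8), while the 3′ peak took 66.7% (60.6 to 72.4) and 73.0% (68.0 to 77.7).

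Within ITGB7 the ratio of the middle peak was 1.71 times that of the 3′ peak (exact conditional interval 1.12 to 2.62). The ratio of the 5′ peak was 0.464 times that of the middle peak (0.228 to 0.933). The 5′ and 3′ peaks were not separated by counting error, since the first was 0.795 times the second (0.421 to 1.47). All 3 peaks come from 1 gene and the same pair of libraries, so they are not replicates.

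Summed over its peaks, ITGB7 had 261 IP and 341 control reads, or a ratio of 0.765 (0.649 to 0.902). It held 2.16% of the IP reads in all peaks and 0.391% of the control reads. Without the 3′ peak that lies inside ZNF740, a sum chosen after its position was seen, the 87 IP and 92 control reads gave 0.946 (0.697 to 1.28). Among the genes with a symbol and 3 peaks, the summed ratio was 0.214 for the initiation factor gene EIF3C (uncertain, since EIF3CL is near-identical), 0.101 for the elongation factor gene EEF1G and 0.0809 for the transcription factor gene MEF2C. All 3 ITGB7 peaks lay above the median ratio, against 2 peaks of EIF3C and 0 of EEF1G and MEF2C, where 50% of all peaks lie above it. The highest ITGB7 ratio was 2.15 times the lowest, and that spread was 5.44 for EIF3C, 4.75 for EEF1G and larger still for MEF2C. The EIF3C peaks had 11 to 12 IP reads and the MEF2C peaks 11 to 20, at or near the fewest in any peak, so the comparison is limited.

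**Figure D2:**
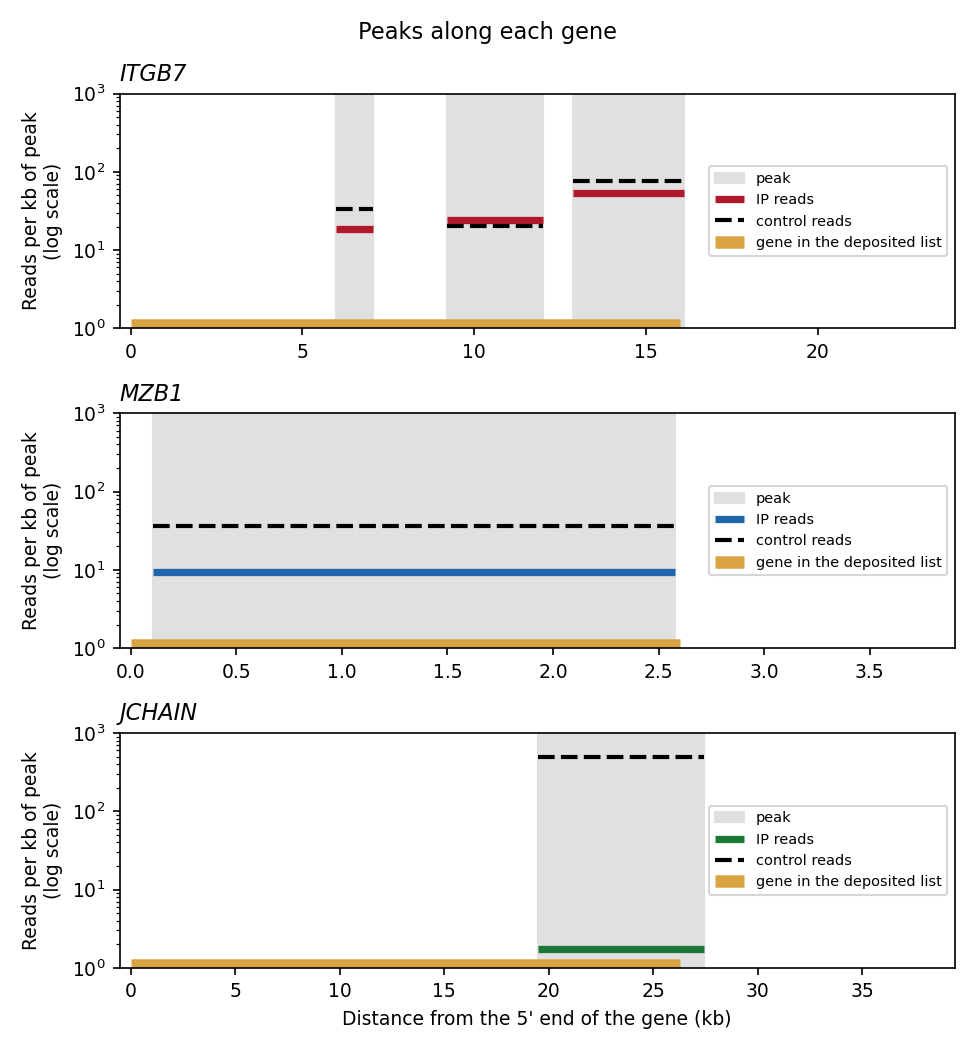
Peaks along ITGB7, MZB1 and JCHAIN, with distance from the 5′ end of each gene in kb on the x axis and reads per kb of peak on a log y axis. Grey blocks are peaks, coloured lines IP reads, dashed lines control reads and the ochre bar the gene. The lines cross over in the ITGB7 middle peak (24.0 IP and 20.0 control reads per kb) and stand farthest apart in JCHAIN (1.76 and 499).

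MZB1 (ENSG00000170476) lies on the minus strand of chromosome 5 from 139387480 to 139390081. Its peak, chr5:139387501-139389975, held 23 IP reads and 90 control reads over 2475 bases. Its ratio was 0.256 (0.154 to 0.408). The interval held the median of all peaks. The peak covered 95.1% of the gene, and unlike the ITGB7 and JCHAIN peaks it reached over the RefSeq start of its gene. Its edge lay 62 bases upstream of that start, which is at 139389913, but 106 bases short of the start given in the deposited list, so those 62 bases are inside the gene by one annotation and outside by the other. All peak widths on chromosome 5 were whole multiples of 225 bases, so offsets of 62 and 106 bases are smaller than a step. The edge therefore does not place the start of the signal to the base, and whether signal crosses the RefSeq start was not tested. The 30 bases around this edge are shown only because the listed peak begins there. They are RefSeq promoter sequence on the minus strand of GRCh38, chr5:139389961-139389990, with the 15 bases inside the peak in capitals.
MZB1 peak edge: aggatgggaggggtgAGGTGTCAGTTCCCC

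The MZB1 peak was closest in control density to the ITGB7 5′ peak and had fewer IP reads per kb than any ITGB7 peak. Control reads numbered 36.4 per kb, close to the 33.5 of the ITGB7 5′ peak, and IP reads numbered 9.29 per kb against 18.6. The ratio of the ITGB7 5′ peak was 2.17 times that of MZB1 (0.996 to 4.70), an interval that just reached 1. The ITGB7 middle and 3′ peaks lay 4.68 times (2.53 to 8.76) and 2.73 times (1.63 to 4.71) above MZB1.

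JCHAIN (ENSG00000132465) lies on the minus strand of chromosome 4 from 70655541 to 70681817. Its peak, chr4:70654376-70662330, had 14 IP reads and 3971 control reads over 7955 bases, a ratio of 0.00353 (0.00193 to 0.00592). No other peak of the list had as many control reads, the next having 2574. IP reads lay close to 11, the fewest in any peak. JCHAIN alone held 4.55% of the control reads in all peaks and 0.116% of the IP reads.

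The JCHAIN peak lay at the 3′ end of the gene, and 1165 of its bases ran past that end. RefSeq gives JCHAIN a shorter span than the list, 10968 against 26277 bases, because its start is at 70666508. The peak's 5′ edge lay 4178 bases downstream of the RefSeq start, and its centre lay at 74.4% of the RefSeq gene and 89.3% of the listed gene. No other RefSeq gene overlapped the peak.

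The ratio of JCHAIN was far from those of its companions. The MZB1 ratio was 72.5 times that of JCHAIN (34.3 to 157), and the ratio of the ITGB7 middle peak was 339 times that of JCHAIN (174 to 686). The second lowest ratio in the list belonged to RPL12, a ribosomal protein gene, with 12 IP and 1402 control reads (0.00856, lower bound 0.00441). The RPL12 ratio was 2.43 times that of JCHAIN (exact conditional interval 1.02 to 5.67), an interval that lay just above 1 for a pair picked as the lowest of the list. Leaving JCHAIN out raised the summed ratio of all peaks from 0.138 to 0.145.

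JCHAIN was low in IP density as well as high in control density. It had 1.76 IP reads per kb, and 14 of 236 peaks had fewer. No listed peak had fewer than 11 IP reads, so an IP density this low could occur only in a wide peak. JCHAIN, at 7955 bases, ranked 34 of 236 by width. Its 499 control reads per kb ranked 28 of 236. Of the 25 peaks with at least 1000 control reads, a mark chosen after the values were seen, the ratios had a median of 0.0305 and reached 0.211, and their IP reads had a median of 38. JCHAIN was the lowest of them by ratio, which follows from its being the lowest of all peaks.

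**Figure D3:**
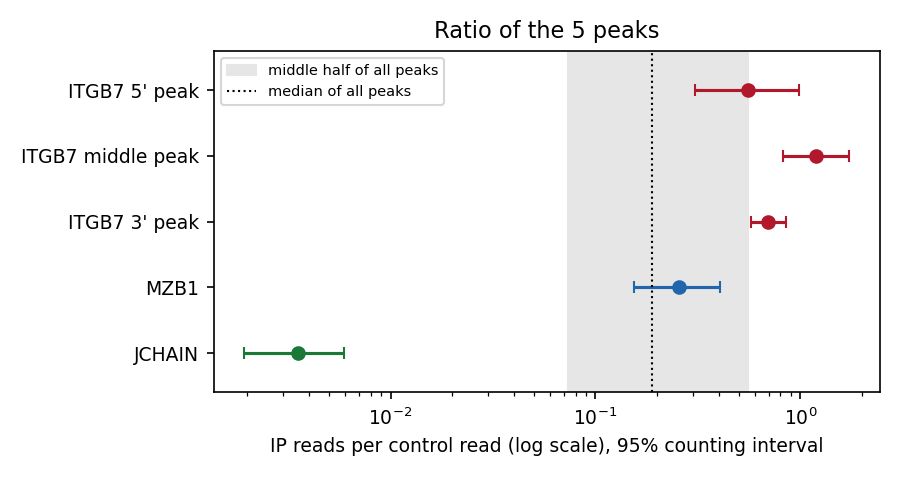
IP reads per control read on a log x axis for the 5 peaks, with exact 95% counting intervals as bars. The grey band runs from the lower to the upper quartile of all peaks (0.0732 to 0.554) and the dotted line is their median (0.190). The ITGB7 points lie at the right edge of the band or beyond it, MZB1 lies inside it and JCHAIN lies far to the left.

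Each peak was also set beside the other peaks with control reads per kb within a factor of 2. Widths were not matched, so these peaks can differ in control reads, and the denominator of the ratio is not held equal. The ITGB7 3′ peak was above 60 of 66 such peaks, whose median was 0.166. The ITGB7 middle peak was above 52 of 60 (median 0.360) and the ITGB7 5′ peak was above 52 of 70 (median 0.320). MZB1 was above 34 of 74 (median 0.316), so it changed from just above the middle of all peaks to just below the middle of these. JCHAIN was below all 49 of its neighbours, whose median was 0.0712 and whose lowest ratio was 0.00856. As JCHAIN had the lowest ratio of the whole list, its place among these neighbours was fixed in advance.

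The authors' deposited table also scores each peak, and it ordered the genes differently. It holds a separate score for the control, not used here, so the score may not compare IP with control reads. What the p-value compares, and in which direction, was not established here. In the authors' deposited table the log-odds score was 35.7 for the ITGB7 5′ peak, 35.7 for the middle peak and 113 for the 3′ peak, against 35.1 for MZB1 and 104 for JCHAIN. By this score JCHAIN ranked 88 of 236 and the ITGB7 middle peak ranked 170. The p-value in the authors' deposited table was exactly 0 for JCHAIN, as for 62 peaks in all. It was 2.16e-90 for the ITGB7 3′ peak, 5.99e-12 for the middle peak, 6.49e-12 for the 5′ peak and 2.11e-18 for MZB1 in the authors' deposited table. JCHAIN was thus lowest by ratio and among the first by the authors' p-value.

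Among the listed genes, those most like each member were sought by the distance between strongest peaks on a plane of log10 IP and log10 control reads per kb, a likeness over 2 libraries. The nearest to ITGB7 were the chromatin remodeler CHD4 (14 IP and 11 control reads), OTUD5 (12 and 13) and EIF3A (13 and 15). All had fewer reads in narrower peaks, and their ratios were 1.27, 0.923 and 0.867. The nearest to MZB1 were PSAP (ratio 0.257), a precursor of lysosomal activators, ZNF609 (0.288) and SERF2 (0.242), at distances of at most 0.0727. JCHAIN had no near neighbour. The closest was the cyclin gene CCND2 at a distance of 0.372, with 13 IP and 1202 control reads (0.0108), followed by B2M, the light chain of MHC class I, at 0.499 and TMSB4X at 0.515.

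The levels of pathway genes without a peak are unknown, and 0.962% of the 20056 protein-coding genes in RefSeq had a peak under the same name. Of 20 genes of plasma cell identity and antibody secretion, 4 had a peak. They were ITGB7, MZB1, JCHAIN and XBP1, the transcription factor of the secretory programme. XBP1 had 100 IP and 1760 control reads, which gave 0.0568 (0.0460 to 0.0695), so XBP1 and JCHAIN lay in the lower part of the list. Over the 4 genes the median was 0.156. Without the 3 genes described here, which were chosen among genes with a peak, the count was 1 of 17.

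ITGB7 was the only one of 25 integrin subunit genes with a peak, so neither of its partner genes, ITGA4 and ITGAE, had one. Of 18 genes of integrin ligands and adaptors, 0 had a peak. Since 0.962% of protein-coding genes had a peak, most lists this short would hold none. ITGB7 and CCND2 are known targets of the transcription factor MAF in myeloma. Of 5 genes of that group, 3 had a peak (2 of 4 without ITGB7), namely ITGB7, MAF with 51 IP and 218 control reads (0.234, 0.169 to 0.319) and CCND2. CCND2, at 0.0108, was among the lowest ratios of the list, and ITGB7 and MAF lay above the median.

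Of 17 genes of immunoglobulin chains and their transport, 0 had a peak, beside 0.962% of protein-coding genes, so the 0 says little. That list also holds heavy chains of classes other than the IgA and IgM that JCHAIN links. Of 19 ER folding genes that act beside MZB1, 4 had a peak, or 21.1% beside that 0.962%, and their median was 0.248. HSP90B1, the chaperone MZB1 works with, had 16 IP and 139 control reads (0.115, 0.0640 to 0.194). PDIA3 (0.128) lay close to it, and P4HB (0.368) and ERP29 (0.591, 0.411 to 0.842) lay above the median of all peaks. PDIA3 and P4HB encode protein disulfide isomerases, and ERP29 encodes a related protein of the ER lumen.

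The label was checked with plasma cell markers other than these 3 genes, and 1 of 7, XBP1, had a peak. SDC1, CD38, TNFRSF17, SLAMF7, PRDM1 and IRF4 had none. Of the markers of other cells, 0 of 6 for T cells, 0 of 5 for B cells, 0 of 5 for myeloid cells, 0 of 4 for erythroid cells and 0 of 4 for stroma had a peak. With 0.962% of protein-coding genes holding a peak, lists this short would mostly hold none. So few genes leave the label largely unchecked.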

How the data were processed

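One list of peaks on GRCh38 was used, with 279 rows for 236 distinct peaks. The counts deposited by the authors give each peak's reads in a test and a control library as whole numbers without normalization. The score and the p-value of each peak are the authors' deposited values, used to describe and rank only. FastQC (0.11.5) and HOMER are the tools named, per the submitters' processing notes. The aligner and the peak caller are not given in the sources used here. Another 4 columns of values were not used. A peak with several genes was counted once. For peaks with 0 control reads the ratio used a floor of 3 reads. Genes without a symbol took the name of a RefSeq gene that overlapped reciprocally by 80% or more, and 3 of 3 members matched RefSeq, whose promoter table gave the sequence and strands. The members and the 6 gene lists and 6 marker lists were chosen with earlier results of these data known. Named are the members, every listed gene with a peak and the 3 nearest genes of each member, while RPL12, EIF3C, EEF1G, MEF2C and ZNF740 were chosen after their values or positions were seen. Intervals came from SciPy 1.17.1. Only those of single peaks were checked, on counts simulated under the model that the intervals assume and without PCR copies. The check therefore could not show whether that model holds for these data. The libraries, 1 per group, allowed no test.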

Additional observations from a re-analysis of the deposited data

How the results depend on the processing

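Places below are the percent of peaks with a lower value. The main place counts all 236 peaks, the peak itself among them, and the alternatives count other peaks only. Of 56 alternatives, 32 were classed as the same, 16 as moved and 8 as reversed. Those classed as the same include counts of listed genes, which have no counting error. Some others in that class could not change. They are the JCHAIN place of 0 among subsets of peaks, and control density by overlap width for peaks wholly inside their gene. The tally is therefore not a measure of robustness. The same class also holds the MZB1 place, which went from 58.9 to 45.9 among peaks of similar control density and so crossed the middle. Ordered by the authors' score, the places changed sides of the middle for the ITGB7 5′ (from 75 to 27.7), ITGB7 middle (from 83.9 to 28.1), MZB1 (from 58.9 to 26.4) and JCHAIN (from 0 to 63.0) peaks. By the authors' p-value they were 21.7, 22.1, 31.1 and 74.0, and the cause was not tested. The score and the p-value may measure something other than IP reads per control read. The ITGB7 3′ peak moved from 78.0 to 66.0 by score, 56.6 by p-value and 90.9 among peaks of similar control density. The ITGB7 middle and 3′ peaks stood at 90 and 83.6 outside chromosome 21, 89.9 and 83.2 among protein-coding genes, 89.5 and 82.7 with centres inside the gene, and 88.8 and 82.5 without peaks with 0 control reads. For ITGB7, the ratio of 1.20 in the strongest peak became 0.765 with reads summed and 0.699 as the median. Dividing all JCHAIN control reads by the bases inside the gene gave 585 per kb, from the smaller width alone. By intervals, 11.4% of peaks lay above a ratio of 1 and 76.3% below it. The alternative by deposited reads per kb was not run, as those columns were not used. Summing without the ITGB7 3′ peak was added after seeing the data. No paired analysis was possible because each group holds 1 library. Depth limits JCHAIN, the ITGB7 5′ peak and MZB1 most, at 14, 20 and 23 IP reads.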
